A study of Mus musculus with 288 samples.

Results

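Proteins that are secreted enter the secretory pathway at the endoplasmic reticulum (ER). The 35 genes described here encode the machinery at that step, and were chosen by name from the known pathway as 35 of the 46078 mouse genes in the count table. They comprise 5 genes of the translocon and its partners, 4 of the translocon-associated protein complex (TRAP), 3 of the signal peptidase, 9 Hsp70 and Hsp90 chaperones and their partners, 2 lectin chaperones, 5 disulfide enzymes and 7 sensors and regulators of the unfolded protein response. Each was found by its symbol as a single row of the table, and all 35 passed the filter on low counts.

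The cells were taken from the upper small intestine (its first 10 cm) of 3 male GLU-Venus mice on a C57BL6 background, aged 20 to 21 weeks, in which the proglucagon promoter drives the fluorescent protein Venus. A single untreated genotype was used, so no group carries a treatment or a second allele. Single cells were sorted into plates, as 3 pools of 96 cells (SLX-11175, SLX-11179 and SLX-9703), and sequenced by Smart-seq2. Each pool is taken here as 1 replicate, since the labels give neither the mouse nor the Venus fluorescence of a cell, and the study also sorted non-fluorescent cells. In the study the mouse sequenced at high depth gave 96 Venus-positive cells. Non-fluorescent cells are reported for the other mice, which were sequenced at low depth.

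In all, 250 of the 288 cells had at least 20000 reads on mouse genes and at most 20% mitochondrial reads: 75, 87 and 88 in the 3 pools. Their median depth was 52571 and 70726 reads in the shallow pools SLX-11175 and SLX-11179 and 1975706 reads in the deep pool SLX-9703. A cell was assigned by 1 marker gene, in CPM (its reads per 1000000 reads on mouse genes): Gcg cells (10000 or more CPM of Gcg; 16, 18 and 19 cells by pool), Gip cells (10000 or more CPM of Gip; 10, 5 and 10 cells), Pzp cells (100 or more CPM of Pzp; 14, 22 and 28 cells) and Jchain cells (100 or more CPM of Jchain; 13, 5 and 1 cells). A further 84 cells met none of these limits, and 5 cells met more than 1 and were left out. None of the 4 marker genes is among the 35.

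The classes were checked against marker lists. All 10 endocrine markers, among them Chga and Neurod1, were found in the Gcg, Gip and Pzp cells, with a median summed level of 22720, 2952 and 11970 CPM. The goblet list differed between these classes, with a median of 853.2 CPM in Gcg, 57.38 in Gip and 9265 in Pzp cells. Of that list, Muc2 was read in only 1 of 53 Gcg and 3 of 64 Pzp cells and Clca1 in none. Fcgbp, in contrast, was read in 56 of 64 Pzp cells (median 146.5 CPM), 17 of 53 Gcg cells and 6 of 25 Gip cells. Most of that list was Tff3 and Agr2, and Agr2, itself a protein disulfide isomerase of the ER, had a median of 4284 CPM in Pzp cells and 310.1 CPM in Gcg cells. The enterocyte list had a median of 1746 CPM in Gcg, 412.8 in Gip, 2434 in Pzp and 7.376 in Jchain cells, with up to 25370 CPM in a Jchain cell, and a list of other immune genes a median of 99.4 CPM in Jchain cells and under 1 CPM in the endocrine classes. The Paneth, stem and tuft lists had medians of 0 in these 4 classes, apart from 4.283 CPM for the stem list in Gip cells. The part of these genes in the results was not tested. Jchain, a gene of antibody-secreting plasma cells, did not mark a uniform class. Of the 18 Jchain cells of the shallow pools, 7 had 76.5 to 89.3% of their reads on immunoglobulin genes and all 7 had reads of Mzb1, a plasma cell chaperone. The other 11 had at most 2.57% immunoglobulin reads and no read of Mzb1, and the Jchain cell of the deep pool likewise had 0.0252%. The class is therefore called by its limit. The 7 cells had 363710 to 779919 reads on mouse genes and the other 11 had 20121 to 83323. The part of depth in which genes were read was not tested. The 7 immunoglobulin-rich cells held 92.1% of the member reads of these 18 cells, beside 85.2% of all their reads on mouse genes. The count of members that passed is also given without the others. Their member reads per 1000000 reads that were neither on hormone nor on mitochondrial genes had a median of 1951 and 2282 in the shallow pools, and 14410 and 21800 once granin and immunoglobulin reads were also left out; the medians of the other 11 were 240.2 and 73.34 on the former scale.

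A signal sequence on a nascent protein brings its ribosome to the ER membrane, where the protein is threaded through the Sec61 channel, loses its signal peptide and folds with the help of chaperones and disulfide enzymes. When unfolded protein builds up, the sensors IRE1 (Ern1), PERK (Eif2ak3) and ATF6 start the unfolded protein response, and the transcription factors XBP1, ATF6 and ATF4 induce many of the genes listed here. Plasma cells are the textbook case of a large ER. Enteroendocrine cells make peptide hormones as larger precursors that pass through the same machinery before they are packed into granules.

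ATF6 and XBP1 are known to act at the ER stress response element (ERSE, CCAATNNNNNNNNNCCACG) and at the related ERSE-II (ATTGGNCCACG). Promoter windows from RefSeq (build GRCm38.p6, which shares the coordinates of mm10), from 250 bases before to 50 bases after the start site, were matched by symbol for 29 of the 35 genes and searched on both strands. ERSE was in 7 of the 29 windows (24.1%) and in 0.137% of the windows of 27025 genes. ERSE-II was in 2 of the 29 (6.9%) and in 0.0444% of all. No window of the 29 held the letters TGACGTGG of the unfolded protein response element (0.714% of all). The matches are shown because 6 of these 9 genes were among those higher in Jchain cells. A match is a description of the letters and not a shown site. The members were chosen by name from a pathway that these factors are known to induce, so a higher share than in all genes is no test. The sequences run 5′ to 3′ on the strand of the gene, and the capitals mark the match, which reads as its reverse complement where it lies on the other strand.
Hspa5 (chr2:34771840-34772089, plus strand): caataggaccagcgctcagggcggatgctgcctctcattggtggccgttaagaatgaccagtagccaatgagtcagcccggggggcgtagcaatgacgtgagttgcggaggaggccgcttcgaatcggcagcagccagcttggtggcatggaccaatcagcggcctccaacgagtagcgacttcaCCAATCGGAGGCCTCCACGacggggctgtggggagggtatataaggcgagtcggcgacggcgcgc
Hsp90b1 (chr10:86705533-86705656, minus strand): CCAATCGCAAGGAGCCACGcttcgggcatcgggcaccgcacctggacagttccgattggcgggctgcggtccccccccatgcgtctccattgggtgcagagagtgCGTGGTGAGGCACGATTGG
Dnajc3 (chr14:118937796-118937875, plus strand): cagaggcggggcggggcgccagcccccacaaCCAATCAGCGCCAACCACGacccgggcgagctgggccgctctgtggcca
Creld2 (chr15:88819489-88819568, plus strand): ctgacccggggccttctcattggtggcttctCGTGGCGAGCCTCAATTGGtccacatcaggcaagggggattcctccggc
Calr (chr8:84847045-84847124, minus strand): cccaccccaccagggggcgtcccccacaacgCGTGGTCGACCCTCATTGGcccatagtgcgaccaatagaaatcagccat
Canx (chr11:50325770-50325849, minus strand): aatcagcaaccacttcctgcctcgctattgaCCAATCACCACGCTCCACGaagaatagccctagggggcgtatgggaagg
Pdia6 (chr12:17266460-17266539, plus strand): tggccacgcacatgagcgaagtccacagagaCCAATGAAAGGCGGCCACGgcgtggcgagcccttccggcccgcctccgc
Dnajb11 (chr16:22857817-22857862, plus strand): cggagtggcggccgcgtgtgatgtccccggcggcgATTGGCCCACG
Herpud1 (chr8:94386342-94386421, plus strand): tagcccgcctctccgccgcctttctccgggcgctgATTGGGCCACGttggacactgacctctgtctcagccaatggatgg
The match in Hspa5 lay 65 to 47 bases before the RefSeq start site. It lies inside the gene coordinates given below for Hspa5, which come from GENCODE and begin further upstream, at 34771970. Hsp90b1 held 2 matches, on opposite strands, and was the only one of the 29 with more than 1. The run shown for Dnajb11 goes on past its start, since its ERSE-II lay after it.

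Levels were taken from reads summed per pool and class, which weights each cell by its reads, and scaled by TMM. Between genes they are compared per kilobase of exon (CPM per kilobase). Over the 9 sums of Gcg, Gip and Pzp cells the most abundant member was Pdia3 (chr2:121413775-121438687), a disulfide isomerase that works with the lectin chaperones, at 106.9 ± 46.9 CPM per kilobase (SD, n = 9 sums). P4hb, the founding protein disulfide isomerase, followed at 82.7 ± 30.2, Hsp90b1 (GRP94) at 64.7 ± 17.9 and Hspa5 (BiP, the main Hsp70 of the ER; chr2:34771970-34777547) at 64.3 ± 19.3. Eif2ak3 was lowest at 0.895 ± 0.805 CPM per kilobase, with 0 reads in the Gip sums of both shallow pools. The translocon subunit Sec61g was next at 1.01 ± 0.785, then Hyou1 at 1.72 ± 1.33 and Atf6 at 1.80 ± 0.690. The ranges of every pair of neighbors in this order overlapped, so the order is a description. The stress sensors Ern1, Atf6 and Eif2ak3 ranked 29, 32 and 35 of 35, while the transcription factors Xbp1 and Atf4 ranked 6 and 8. Sec61a1, the channel itself, stood at 10.6 ± 3.92 CPM per kilobase against 23.3 ± 10.5 for its small partner Sec61b.

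**Figure D1:**
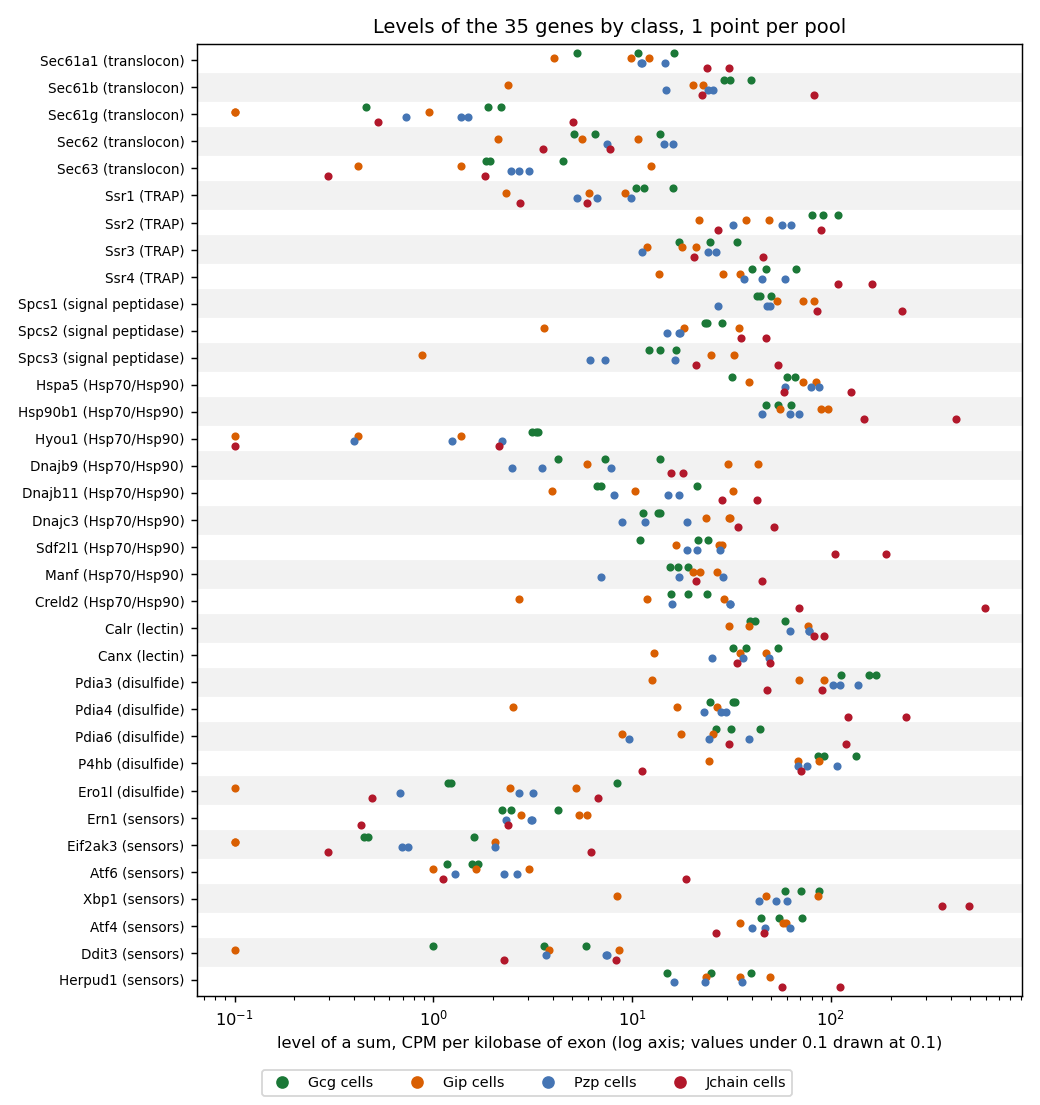
Level of each of the 35 genes, on a log axis, as CPM per kilobase of exon in the summed reads of Gcg, Gip, Pzp and Jchain cells, with 1 point per pool (2 for Jchain cells); a value under 0.1 is drawn at 0.1. The endocrine classes overlap for most genes, and the Jchain points of Pdia4, Xbp1, Sdf2l1 and Creld2 lie to the right of all others.

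Summed over the 35 genes, the level was 3223, 3256 and 3886 CPM in Gcg cells (3455 ± 373.8, SD, n = 3 pools; pools in the order SLX-11175, SLX-11179, SLX-9703 here and below). It was 1722, 3101 and 3748 CPM in Gip cells, and 3308, 2539 and 3550 CPM in Pzp cells. Cells that met no limit had 2531, 2667 and 3202 CPM. The 2 Jchain sums had 5310 and 9772 CPM, above each of the 12 other sums. Disulfide enzymes and Hsp70/Hsp90 chaperones made up the greatest parts: 973.0 ± 16.8 and 701.1 ± 70.2 CPM in Gcg cells and 773.9 ± 121.5 and 809.6 ± 210.2 CPM in Pzp cells.

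The 3 endocrine comparisons ask whether cells with different hormones differ in this machinery. No member passed the test in any of them (edgeR quasi-likelihood test, adjusted over 11564 genes). Between Gcg and Pzp cells 0 of 35 passed, beside 12 genes (0.104%) of all tested, and 0 of 35 also had an unadjusted p under 0.05, as had 4.25% of all genes. The members' median log2 difference was 0.09 and that of all genes -0.01. Between Gip and Pzp cells 0 of 35 passed, beside 1.74% of all genes, with 2 members (5.71%) at an unadjusted p under 0.05, beside 13.6% of all genes, and a median of -0.29 (all genes -0.25). Between Gip and Gcg cells 0 of 35 passed, beside 0.666% of all genes, with 5 members (14.3%) at an unadjusted p under 0.05, beside 12.2% of all genes, and a median of -0.28 (all genes -0.24). With library totals in place of TMM scaling the medians of all genes became -0.99 in the former and -0.77 in the latter of these Gip comparisons, and those of the members -0.98 and -0.83. No member was then called in the 3 comparisons, beside 0.0865%, 4% and 1.18% of all genes. DESeq2 called 0, 1 and 1 member, in both cases Dnajb9, beside 0.986%, 6.68% and 4.51% of all genes. The Gip sums are shared by the latter 2 comparisons, and those of the shallow pools hold only 420453 and 558603 reads. The standard error of a member in the Gcg and Pzp comparison was between 0.44 (Calr) and 1.34 (Ero1l) on the log2 scale, so a difference of 2-fold could be missed for most members.

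Dnajb9 (ERdj4; chr12:44205559-44210326) encodes a partner of BiP that directs misfolded proteins to degradation, and is a known target of XBP1. Its level was 15.2, 77.2 and 109.9 CPM in Gip cells, 10.8, 18.7 and 35.2 CPM in Gcg cells and 6.30, 9.01 and 19.9 CPM in Pzp cells. Within each pool Gip cells were the highest and Pzp cells the lowest of the 3, though across pools the Gip sum of SLX-11175, which rests on 5 reads, lay within the ranges of both Gcg and Pzp cells. The log2 difference was 2.46 ± 0.66 (SE) between Gip and Pzp cells (edgeR adjusted p = 0.0707) and 1.58 ± 0.63 between Gip and Gcg cells (adjusted p = 0.322). In the former comparison the adjusted p ran from 0.000271 to 0.509 over the 20 alternatives tried, with 4 of them past the threshold. Dnajc3 (p58IPK), another partner of BiP, was at 121.3, 158.0 and 160.4 CPM in Gip cells, above the 58.5, 69.7 and 70.7 CPM of Gcg cells without overlap (log2 difference 1.14 ± 0.49, edgeR adjusted p = 0.349). Over the 20 alternatives the difference between Gip and Gcg cells ran from 0.631 to 1.28 for Dnajc3 and from 0.753 to 2.02 for Dnajb9.

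Ssr2 (chr3:88575876-88588419), a subunit of TRAP, the complex that helps some signal sequences to open the channel, was at 149.9, 203.0 and 170.2 CPM in Gcg cells and 69.7, 40.4 and 91.2 CPM in Gip cells. The groups did not overlap, and the log2 difference of Gip against Gcg cells was -1.40 ± 0.54 (edgeR adjusted p = 0.2998). Pdia3 had 487.5, 527.3 and 354.7 CPM in Gcg cells and 39.4, 216.8 and 291.5 CPM in Gip cells (log2 difference -1.46 ± 0.57, edgeR adjusted p = 0.310). Hyou1 (GRP170), which recharges BiP with nucleotide, had 24.2, 23.8 and 22.7 CPM in Gcg cells and 3.03, 0 and 10.01 CPM in Gip cells, of which the former 2 rest on 1 and 0 reads (log2 difference -2.74 ± 1.078, edgeR adjusted p = 0.313). Over the 20 alternatives tried the difference ran from -1.95 to -1.04 for Ssr2, -2.11 to -0.801 for Pdia3 and -6.62 to -1.1 for Hyou1. Ssr2 and Pdia3 were called lower with thinned cells, beside 2.3% of all genes. In Gip cells 3 of 35 members (Spcs1, Dnajc3 and Manf) were above and 7 (Ssr1, Ssr2, Ssr4, Sec61b, Pdia3, Pdia6 and Hyou1) below Gcg cells in every sum, beside 4.18% and 11.8% of all genes. In Gip against Pzp cells 2 members were above without overlap (Spcs1 and Dnajc3; 4.91% of all genes) and 2 below (Ssr4 and Pdia3; 13.3%). Between Gcg and Pzp cells 5 members were higher without overlap (Ssr1, Ssr2, Spcs2, Hyou1 and Sec61b; 6% of all genes) and Calr was lower (6.35%).

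**Figure D2:**
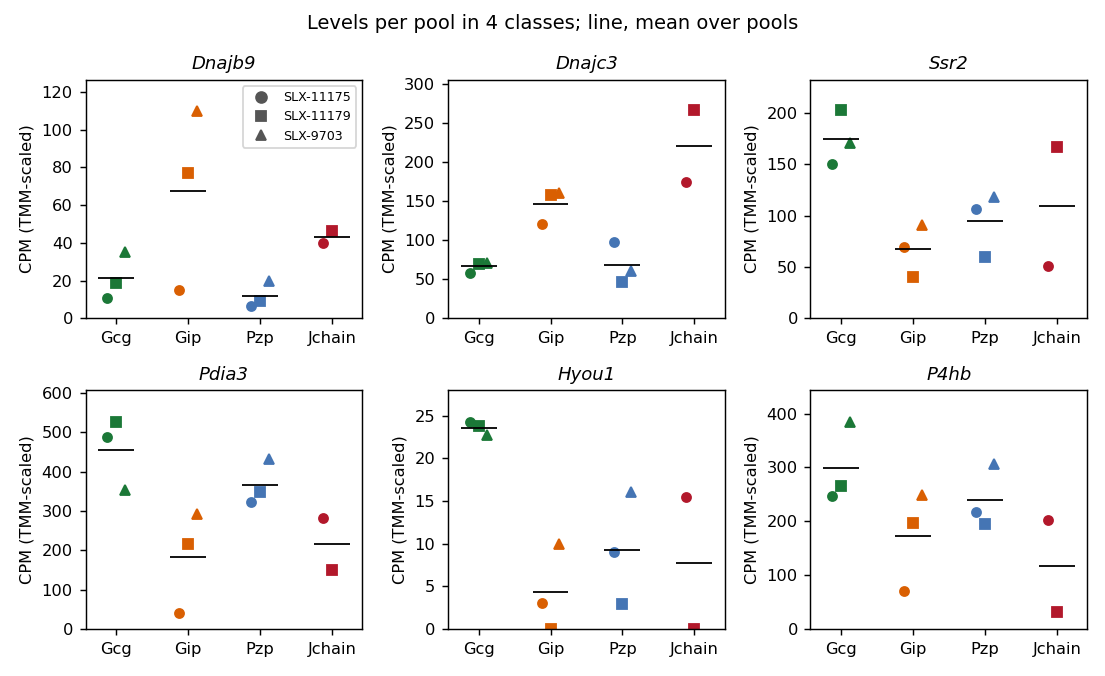
Levels of 6 members in 4 classes, in TMM-scaled CPM on a linear axis from 0, with 1 symbol per pool and a line at the mean over pools. Dnajb9 and Dnajc3 have their highest endocrine means in Gip cells, and Ssr2, Pdia3 and Hyou1 their lowest.

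The members were also counted per cell, where each cell weighs the same and the scale differs from that of the sums. Counted as member reads per 1000000 reads that were neither on hormone nor on mitochondrial genes, the deep pool had a median of 8616 in Gcg cells (3672 to 13820, n = 19), 7580 in Pzp cells (1296 to 11510, n = 28), 3479 in Gip cells (872.1 to 11060, n = 10) and 5094 in cells of no class (70.8 to 12850, n = 29). The ranges of the classes overlapped, while the medians of Gip and Gcg cells lay further apart than their sums in this pool (3748 and 3886 CPM). In SLX-11175 the medians were 5274, 5833, 981.4 and 2847, with the upper quartile of Gip cells (1876) below the lower quartile of Gcg cells (4410), and in SLX-11179 they were 4460, 3950, 4237 and 3278. The low median of the Gip cells of SLX-11175 came with a median of 1901 genes found per cell, against 4005 in Gcg cells of that pool; in the deep pool the numbers were 6842 and 9650. The Gip limit also takes in cells with few hormone reads: 5, 1 and 4 Gip cells of the 3 pools had under 10% of their reads on hormone genes. The medians of the Gip cells with 10% or more, a limit chosen after seeing the data, were 2033, 4797 and 7254 in the 3 pools (n = 5, 4 and 6). The part of cell quality in this was not tested.

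The comparison of Jchain cells with the mean of the 3 endocrine classes sets the machinery of the hormone cells beside that of a class in which 7 of the 18 cells summed were rich in immunoglobulin. Of the 35 members 12 were higher in Jchain cells and none lower (edgeR quasi-likelihood test), beside 3.47% of all genes higher and 8.8% lower. All 35 would pass the filter on low counts in the endocrine sums alone, and of the 10751 genes that would, 1.83% were higher. DESeq2 also called no member lower, beside 17.4% of all genes, and called 19 of 34 higher, beside 7.83%. The median log2 difference was 1.27 over the members and -0.93 over all genes, so the members stood 2.20 above the shift of all genes. This gap was 1.13 without pool SLX-11179, 7.16 without SLX-11175 (where the median of all genes was -5.21) and 1.25 with each cell thinned to 20000 reads. Without either shallow pool a single Jchain sum is left, which is then assumed to vary like the sums of the other classes. Levels of 12 members lay above every one of the 9 endocrine sums in both pools (3.95% of all genes did). This set differed from the called members: it held Calr and Spcs2, which were not called, and left out Dnajb11 and Pdia6, which were. The scale decides the direction in part. With library totals in place of TMM, where the reads of immunoglobulin genes count in full, the median was -0.39 over the members and -2.57 over all genes, still 2.18 apart, and 2 members were higher (Creld2 and Pdia4; 2.08% of all genes) and 7 lower (Sec62, Sec63, Ssr1, Pdia3, P4hb, Ern1 and Atf4; 33.8% of all genes). Of all reads in the 2 Jchain sums, members took 1814 and 3392 reads per 1000000. In the same pools they took 4280 and 3593 in Gcg and 4321 and 3826 in Pzp cells, but 1351 and 3022 in Gip cells. Immunoglobulin genes took 67.2% and 80.2% of the reads of the Jchain sums. Of the remaining reads of these sums, members took 5532 and 17165 reads per 1000000. With thinned cells, so that every cell weighs the same, 3 of 32 members were higher (Dnajb11, Xbp1 and Creld2), beside 2.24% of all genes. Without pool SLX-11179 only Xbp1 and Pdia4 were called, beside 2.5% of all genes higher, and without the 11 cells with few immunoglobulin reads 15 were higher, the same 12 among them, and Ssr1 was lower, beside 3.81% and 16.9% of all genes.

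**Figure D3:**
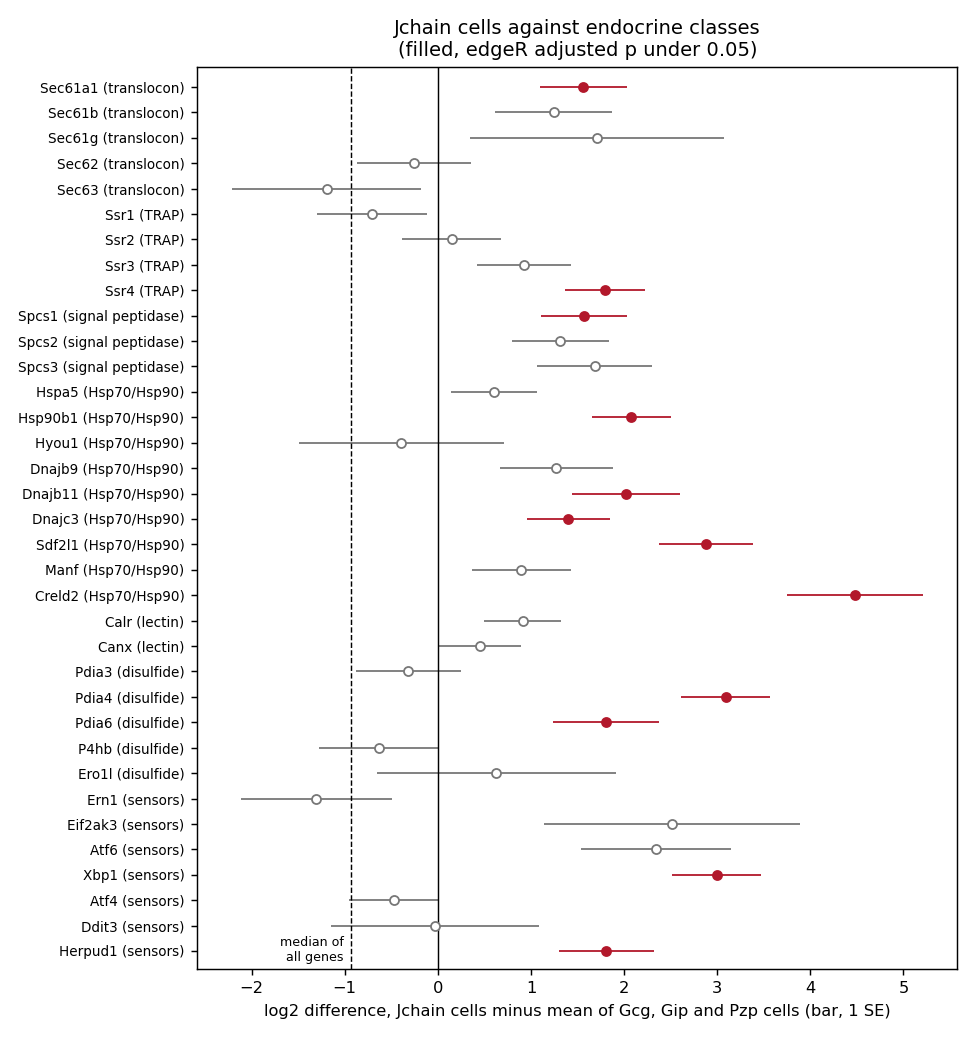
Log2 difference of each member between Jchain cells and the mean of Gcg, Gip and Pzp cells, with bars of 1 SE; filled points passed the edgeR test and the dashed line is the median of all genes. The 12 filled points lie between 1.40 (Dnajc3) and 4.48 (Creld2), and all but Sec63 and Ern1 of the 35 lie to the right of the dashed line.

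At the channel, Sec61a1 was at 160.4 and 208.0 CPM in Jchain cells against 27.3 to 109.7 CPM in the 9 endocrine sums, a log2 difference of 1.56 ± 0.46 (edgeR adjusted p = 0.0349), which was -0.08 with library totals. Sec61b and Sec61g did not pass, and Sec62 and Sec63, which serve the import of finished proteins, had log2 differences of -0.26 ± 0.61 and -1.20 ± 1.02. Among the TRAP genes Ssr4 alone was called, with 336.3 and 501.3 CPM against 42.4 to 205.9 CPM (1.79 ± 0.43, edgeR adjusted p = 0.0102, and 0.13 with library totals), and was read in all 7 immunoglobulin-rich cells. Ssr1 had -0.70 ± 0.59, and Ssr2, the subunit with the highest TRAP level in Gcg cells, 0.15 ± 0.53. Of the signal peptidase, Spcs1 was called (131.9 and 353.8 CPM against 41.8 to 126.8; 1.57 ± 0.46, edgeR adjusted p = 0.0331, and -0.09 with library totals), while Spcs2 and Spcs3 had 1.32 ± 0.52 and 1.68 ± 0.62 with adjusted p of 0.109 and 0.0849.

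Of the 9 Hsp70 and Hsp90 chaperones and partners, 5 were higher in Jchain cells. Creld2 (chr15:88819646-88826683), a secreted ER stress protein with disulfide isomerase-like motifs, had the greatest difference, 4.48 ± 0.73 (edgeR adjusted p = 0.000495), from 94.4 and 814.2 CPM against 3.67 to 42.7 CPM. It was read in all 7 immunoglobulin-rich cells, at 8.24 to 713 CPM before TMM scaling, and its 458 reads in SLX-11179 stood against 73 in SLX-11175; without SLX-11179 the difference was 1.63 (adjusted p = 0.209, and 1.2e-09 to 0.209 over the alternatives). Sdf2l1, a partner of BiP complexes, had 116.4 and 209.8 CPM against 12.1 to 31.5 CPM (2.88 ± 0.51, edgeR adjusted p = 0.00104), and 1.25 with library totals or with thinned cells. Hsp90b1, the Hsp90 of the ER, needed for the folding of Toll-like receptors and integrins, had 595.0 and 1719 CPM against 180.6 to 389.5 CPM (2.08 ± 0.42, edgeR adjusted p = 0.00337), and 0.41 with library totals. Dnajb11 (ERdj3), which binds nascent immunoglobulin chains with BiP, had 91.8 and 136.9 CPM, and the former lay below the 104.3 CPM of Gip cells in the deep pool (2.02 ± 0.58, edgeR adjusted p = 0.0294, and 0.40 with library totals). Dnajc3 had 174.6 and 266.7 CPM against 45.9 to 160.4 CPM (1.40 ± 0.44, edgeR adjusted p = 0.0460), and its difference was -0.25 with library totals. Hspa5 itself, known for its binding to immunoglobulin heavy chains, was not called: 245.8 and 536.9 CPM overlapped the 134.4 to 369.3 CPM of the endocrine sums (0.60 ± 0.46, edgeR adjusted p = 0.421). Manf, Dnajb9 and Hyou1 had 0.89, 1.27 and -0.39.

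The lectin chaperones Calr and Canx, which hold proteins that carry a monoglucosylated glycan, had log2 differences of 0.91 ± 0.42 and 0.46 ± 0.44 and were not called (edgeR adjusted p = 0.165 and 0.536). The disulfide enzymes were unlike each other. Pdia4 (ERp72) had 291.0 and 576.0 CPM against 6.06 to 78.8 CPM (3.09 ± 0.47, edgeR adjusted p = 0.000308, and 1.43 with library totals), and Pdia6, which limits IRE1 activity, 115.1 and 446.2 CPM against 33.4 to 164.7 CPM (1.80 ± 0.57, adjusted p = 0.0469), which was 0.14 with library totals, 0.19 with thinned cells and 0.41 without SLX-11179. In contrast the 2 most abundant members of the endocrine cells were not higher. Pdia3 had 283.3 and 149.3 CPM (-0.32 ± 0.56) and P4hb 203.1 and 32 CPM (-0.63 ± 0.64) in Jchain cells. P4hb was read in 5 of the 7 immunoglobulin-rich cells and Pdia4 in 6. Ero1l, the oxidase that recharges these enzymes, had 2.59 and 35.6 CPM.

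Among the sensors and regulators, Xbp1 (chr11:5520659-5525893), a transcription factor that plasma cells need to form, was higher at 1181 and 1614 CPM against 27.3 to 284.4 CPM (2.99 ± 0.48, edgeR adjusted p = 0.000454), and 1.31 with library totals, where it was not called. All 7 immunoglobulin-rich cells had reads of it, with 247.2 to 743.3 CPM before TMM scaling, which raises the values of the Jchain sums. The counts do not part its spliced from its unspliced transcript. Herpud1, which helps to clear misfolded proteins, had 133.2 and 259.5 CPM against 35.1 to 115.0 CPM (1.81 ± 0.51, edgeR adjusted p = 0.0277, and 0.13 with library totals and 0.19 with thinned cells). It was read in all 7 of these cells and in none of the other 11, each of which had fewer reads in total than any of the 7. Atf6 had 10.4 and 172.4 CPM, so the pools lay far apart (2.34 ± 0.80, edgeR adjusted p = 0.0675). In the PERK arm, Eif2ak3 had 37.5 and 1.78 CPM, Atf4 had -0.47 ± 0.48 and Ddit3 (CHOP, which is tied to cell death under ER stress) -0.03 ± 1.12, with 3.88 and 14.2 CPM. Ern1 had -1.31 ± 0.81.

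By promoter, 6 of the 9 members with ERSE or ERSE-II were higher in Jchain cells (Hsp90b1, Dnajc3, Creld2, Pdia6, Dnajb11 and Herpud1, with a median of 1.80 over the 9), and 5 of the 20 with a window and no match (median 1.08), beside 3.47% of all genes. Between Gip and Gcg cells the medians of the same groups were 0.27 and -0.52, between Gip and Pzp cells -0.25 and -0.30, and between Gcg and Pzp cells -0.13 and 0.26, with no member called in any. Whether these groups differ was not tested.

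Further genes of the pathway were counted from lists. In the 3 endocrine comparisons none of the 49 tested genes for targeting, glycosylation, degradation, other folding steps or the integrated stress response passed. In Jchain cells 11 were higher and 2 lower, beside 3.47% and 8.8% of all genes. Among the 11 were Derl3 and Mzb1, which passed the filter on low counts only through the Jchain sums and so had to differ; without such genes 9 of 46 were higher, beside 1.83% of all genes. Of the degradation genes 4 of 10 were then higher: Edem1 and Edem2, which trim mannose from misfolded glycoproteins (474.7 and 936.8 CPM for Edem1 against 5.10 to 20.4 CPM among the Gcg, Gip and Pzp sums with a read), Syvn1 and Derl1. Of the other folding genes 3 of 10 were higher, namely Txndc5 (1305 and 2921 CPM against 39.4 to 222.3 CPM), Txndc11 and Ppib. Mzb1 and Derl3 are also on the plasma cell list by which the class was checked, and Derl3 had 0 reads in all 9 endocrine sums. Of the targeting genes Sec11c, a catalytic subunit of the signal peptidase, was higher (log2 difference 4.28 ± 0.45, edgeR adjusted p = 6.83e-06). Of the oligosaccharyltransferase, Krtcap2 was higher and Tusc3 lower, at 3.88 and 0 CPM against 30.3 to 174.1 CPM. Atf3, a stress-induced transcription factor, was lower as well. Of 10 cytosolic chaperones, Hspa1a was higher and Dnaja1 lower.

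The relation between hormone output and this machinery was described across cells. In each pool the member reads per 1000000 reads that were neither on hormone nor on mitochondrial genes were set against the share of reads on 14 hormone genes, which ran up to 50.3%, 61.1% and 55% in the 3 pools. Spearman's rho was 0.601 (n = 75 cells), 0.553 (n = 87) and 0.458 (n = 88). For single genes found in at least 50% of the cells of a pool, the median rho with the hormone share was 0.317 over 1306 genes, 0.251 over 1873 and 0.185 over 7969. The members among them had medians of 0.459 (18 members), 0.374 (22) and 0.322 (34), and 15, 19 and 29 of them lay above the median of all genes. Per 1000000 of all reads, the rho of the summed members was 0.494, 0.3565 and 0.1764 in the 3 pools. With granin and immunoglobulin reads also left out it was 0.3533, 0.4317 and 0.4947. Among cells with at least 50000 reads it was 0.3153, 0.3745 and 0.4579. The cells of a pool were not taken as replicates, and the values carry no p.

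The number of genes found and the depth of a cell moved with both quantities. The member level had a rho of 0.868, 0.798 and 0.758 with the number of genes found per cell, and the hormone share one of 0.533, 0.473 and 0.394. With the reads per cell the member level had 0.494, 0.632 and 0.75, and the hormone share 0.182, 0.38 and 0.619. With the mitochondrial share the member level had -0.0546, -0.0179 and -0.388. Given the number of genes found, the partial rho of member level and hormone share was 0.329, 0.331 and 0.266. Among cells with at least 3000 genes (8000 in the deep pool) rho was 0.0417, 0.249 and 0.0961. This limit is set on a number that itself moves with the member level. Among cells with at least 1% hormone reads rho was 0.355, 0.438 and 0.476. Within Gcg cells rho was 0.329, 0.604 and 0.174 (n = 16, 18 and 19), and within Pzp cells 0.481, 0.488 and 0.385 (n = 14, 22 and 28). Within Gip cells it was 0.879 in SLX-11175 and 0.818 in SLX-9703 (n = 10 each), and it was not computed for the 5 Gip cells of SLX-11179. Cells of no class had 0.674, 0.517 and 0.277, and the 13 Jchain cells of SLX-11175 had -0.385.

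**Figure D4:**
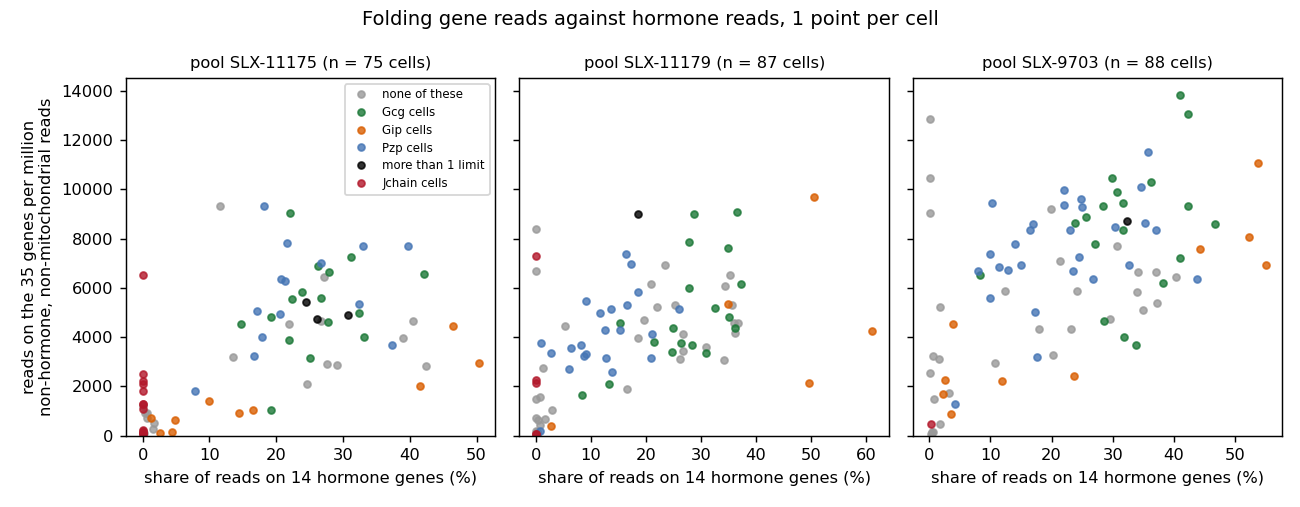
Member reads per 1000000 non-hormone, non-mitochondrial reads (y axis) against the share of reads on 14 hormone genes in percent (x axis), 1 point per cell and 1 panel per pool, colored by class. Cells with almost no hormone reads lie mostly at the bottom left, with a few of no class or with Jchain higher up, and above a share of 10% the points form a broad cloud.

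By gene, the highest values were those of Ssr2, with rho 0.619, 0.502 and 0.581 in the 3 pools, P4hb with 0.559, 0.541 and 0.419, Pdia3 with 0.534, 0.525 and 0.329, and Canx with 0.506, 0.549 and 0.334. Ssr4 had the highest rho of a member in the deep pool, at 0.635. All 4 TRAP genes were above 0.29 in each pool, where the median of all genes found in at least 50% of cells was 0.317, 0.251 and 0.185. Ssr1 (0.3 in SLX-11175) lay below the median of that pool. The lowest medians over pools were those of Atf6 (-0.0569, 0.00306 and 0.263), Ddit3 (0.0525, 0.0227 and -0.0113), Ero1l (0.122, 0.0800 and -0.00646) and Sdf2l1 (0.0996, 0.0598 and 0.304). These 4 genes were read in 16 to 47.1% of the cells of the shallow pools, which limits a rank correlation there. Xbp1 had 0.183, 0.369 and 0.449, and Hspa5 0.486, 0.296 and 0.230.

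Outside the lists, the genes whose level per 1000000 followed the summed member reads most closely, by the lowest of their 3 within-pool rho among 1164 genes found in at least 50% of cells of each pool, were Atp5b (0.735, 0.721 and 0.675), Eef1a1 (0.804, 0.665 and 0.777), Oaz1-ps, Cdc42, Psmb1, Ubb, Itm2b, Tagln2, Akr1a1 and Atp5a1 (lowest 0.617). Atp5b and Atp5a1 encode subunits of the mitochondrial ATP synthase and Eef1a1 the elongation factor that brings tRNA to the ribosome. Eef1a1, Ubb and Oaz1-ps have close copies in the genome, so their counts are uncertain. For scale, the summed member level had a rho of 0.868, 0.798 and 0.758 with the number of genes found per cell. Whether the listed genes follow the members beyond that number was not tested.

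Co-variation of the members was described in the 19 Gcg and 28 Pzp cells of the deep pool, with ranks centered within each class so that a difference between classes adds nothing. The median rank correlation over the 595 pairs of members was 0.126 (quartiles 0.00934 and 0.241), against 0.0151 (quartiles -0.0900 and 0.120) over all pairs of 8722 genes found in at least 50% of these cells. For genes found in at least 90% of the cells the medians were 0.161 (26 members) and 0.0207 (3119 genes). The disulfide enzymes (0.328, 10 pairs) and the TRAP genes (0.302, 6 pairs) had the highest medians within a role with more than 1 pair, and the sensors (0.0513, 21 pairs) and the signal peptidase (0.0630, 3 pairs) the lowest. The 9 members with ERSE or ERSE-II had 0.211 over 36 pairs. The highest single pairs were Sec61a1 with Hspa5 (0.592), Hsp90b1 with Calr (0.547) and Canx with Xbp1 (0.541). Atf4 had its lowest values with Sdf2l1 (-0.380) and Ssr2 (-0.335).

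**Figure D5:**
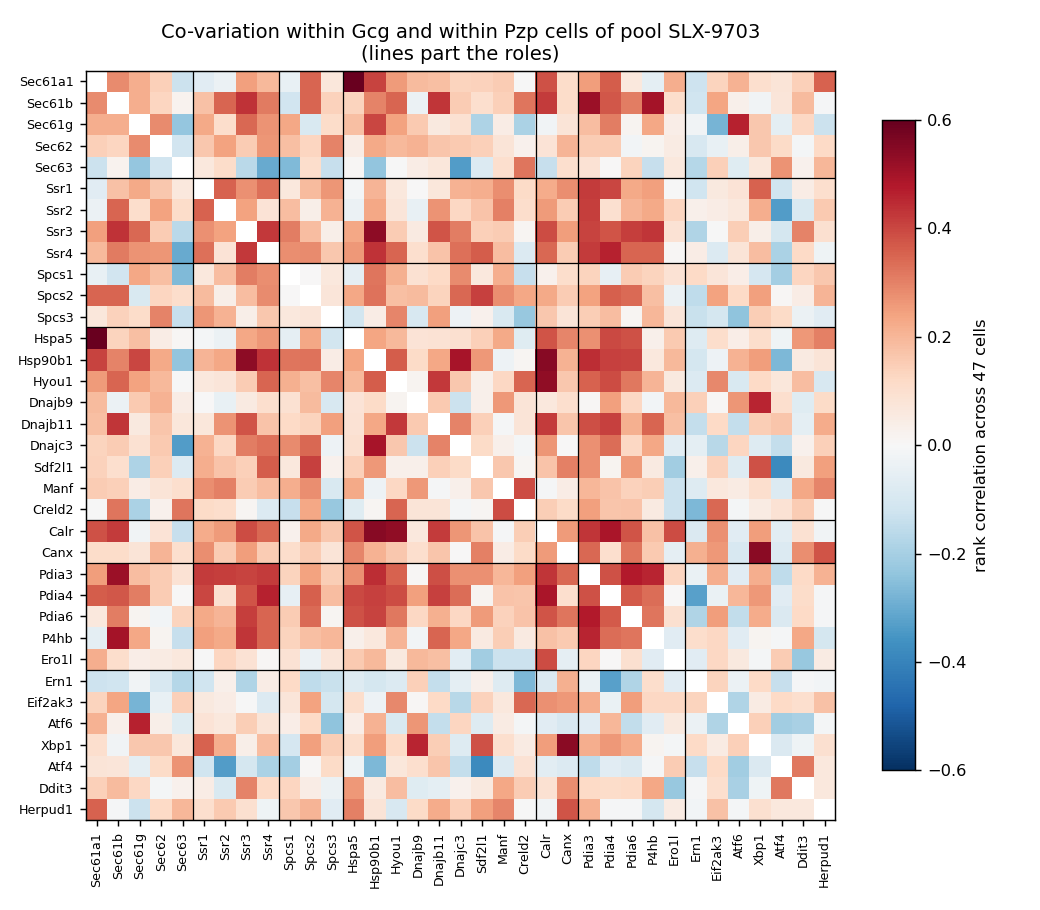
Rank correlation between each pair of members across 47 cells (19 Gcg and 28 Pzp cells of pool SLX-9703, ranked within class), red for positive and blue for negative values, with lines between the roles. The block from Ssr3 and Hsp90b1 to Calr and the disulfide enzymes is mostly red, and the rows of Ern1 and Atf4 are mostly pale or blue.

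To compare detection at an equal total, each cell was thinned to 20000 reads. The reads left for the members still differed, since hormone genes took up to 61.1% of the reads of a cell and immunoglobulin genes 76.5 to 89.3% in 7 of the Jchain cells. The share of cells with a read, with its exact (Clopper-Pearson) 95% interval for counting error alone, was then highest for Pdia3 in Gcg cells, at 98.1% (89.9 to 100%) of 53 cells. It was 96.9% (89.2 to 99.6%) of 64 Pzp cells, 48% (27.8 to 68.7%) of 25 Gip cells and 26.3% (9.15 to 51.2%) of 19 Jchain cells. Xbp1 was read in 92.5% (81.8 to 97.9%) of Gcg, 82.8% (71.3 to 91.1%) of Pzp, 44% (24.4 to 65.1%) of Gip and 52.6% (28.9 to 75.6%) of Jchain cells. Ssr2 had 92.5% of Gcg, 81.2% of Pzp, 44% of Gip and 15.8% (3.38 to 39.6%) of Jchain cells. Dnajb9 was read in 36% (18 to 57.5%) of Gip, 30.2% (18.3 to 44.3%) of Gcg and 20.3% (11.3 to 32.2%) of Pzp cells, and these intervals overlapped. Sec61g had no read in the 25 thinned Gip cells (upper limit 13.7% at this depth), while 20% of them had a read before thinning. Over the 35 members the median share was 52.8% in Gcg, 64.1% in Pzp, 36% in Gip and 26.3% in Jchain cells. Without thinning the medians were 83%, 82.8%, 60% and 47.4%. These shares join cells of all pools, and the deep pool gave 19 of the 53 Gcg, 28 of the 64 Pzp, 10 of the 25 Gip and 1 of the 19 Jchain cells.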

How the data were processed

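Single sorted cells of the mouse upper small intestine were sequenced by Smart-seq2, which marks no strand and adds no molecular identifiers. By the submitters' processing notes, reads were aligned with GSNAP to mm10 and counted per gene with HTSeq (0.5.3p3). The authors deposited raw counts, without normalization. The 5 lines that name no gene (77.6% of counts) and 92 spike-ins (5.34%) stayed out of library sizes, and 4 columns that match no sample were not used. Symbols, coordinates and exon lengths came from GENCODE M21 (mm10), which holds 45143 of the 46078 identifiers.

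Counts of cells that passed were summed per pool and class (3 or more cells), giving 14 sums of 420453 to 58925336 reads, and tested with edgeR 4.0.16 (TMM, filterByExpr, quasi-likelihood, Benjamini-Hochberg adjustment, threshold 0.05) in 1 model with the pool as block and 7 residual degrees of freedom. DESeq2 1.42.0 was an alternative. No doublet caller was run on sorted single cells. With the pool as block, p-values measure the spread that is left between sums once pool and class are accounted for. Pools were not shown to be separate animals by the labels, so this is not shown to be a spread between animals. Without strand, reads of overlapping genes cannot be told apart: Spcs1 overlaps Glt8d1, Spcs2 Xrra1, Spcs3 Asb5, Pdia6 Atp6v1c2, Pdia3 Catsper2, Manf Dcaf1 and Rbm15b, Ddit3 Mars, and Sec61a1, Sec62, Sec63, Ssr2, Hsp90b1, Dnajb9, Dnajb11, Pdia4, Eif2ak3, Atf6 and Herpud1 overlap miRNA, noncoding or predicted genes.

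The members, gene lists and tests were chosen with earlier results of these data known. Every member is described by role, with values for those that passed and those with the lowest and highest level and rho; other pathway genes are named where they passed, and so are the 10 genes most like the member sum. The examples of the endocrine comparisons (unadjusted p under 0.05 or no overlap), Hspa5, the motif groups and the thinned shares shown were picked after values were seen. Analyses ran in R 4.3.3 and Python 3.11.15.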

Additional observations from a re-analysis of the deposited data

How the results depend on the processing

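The 4 comparisons were repeated under 20 alternatives each, of which library totals, the immunoglobulin-rich Jchain cells, Gip cells with 10% or more hormone reads and cells with 1500 or more genes were chosen after seeing the data. Between Gcg and Pzp cells no member passed under any, beside 0.0205 to 1.21% of all genes. Between Gip and Pzp cells 1 member passed with DESeq2 size factors, the DESeq2 test, cells of more than 1 limit kept and Gip cells of 10% or more hormone reads (Dnajb9, higher in each, beside 0.718%, 2.79%, 0.682% and 0.615% of all genes), and 1 with thinned cells (Pdia3, lower, beside 3.74%); between Gip and Gcg cells 1 passed with the DESeq2 test (Dnajb9, higher, beside 1.79%) and 2 with thinned cells (Pdia3 and Ssr2, lower, beside 2.3%). Leaving out a pool gave 0 in all 3, beside 0.0205 to 0.863% of all genes. In Jchain cells 19 members passed with the DESeq2 test and 3 with thinned cells. With library totals, by direction reversed on balance, 9 passed (2 higher and 7 lower). There Spcs1 had -0.086, Dnajc3 -0.248 and Sec61a1 -0.08. Leaving out a pool gave 2 to 18: 2 without SLX-11179, 7 without SLX-9703 and 18 without SLX-11175. Of those called without SLX-11175, P4hb was lower and the others were higher. The median log2 difference there was 1.95 over the members and -5.21 over all genes. A single Jchain sum was left without SLX-11179 and without SLX-11175. The shares of all genes higher were 2.5%, 2.58% and 2.9%, in the same order. The other 13 alternatives gave 8 to 17, beside 2.31 to 4.55% of all genes higher. Their calls were all higher, apart from Ssr1, which was lower with only the immunoglobulin-rich Jchain cells. Without the replicate block for the pool the counts were 0, 0, 0 and 9 (higher, beside 3.65% of all genes), of which 8 were among the 12. The cell numbers of the labels pair no samples. The median rho with the hormone share (0.553) was 0.356 per all reads, 0.432 without granin and immunoglobulin genes, 0.374 for cells of 50000 reads, 0.438 for cells with 1% or more hormone reads, 0.329 in Gcg cells, 0.329 as a partial rho and 0.096 for cells with at least 3000 genes (8000 in the deep pool), the latter 2 chosen after seeing the data; 0.506 to 0.577 without a pool. The median share of Gcg cells with a read was 52.8%, 83% without thinning and, without a pool, 47.1 to 60%. The cause of these changes was not tested. Sec61g and Eif2ak3 had 0 reads in 2 Gip sums, those of the shallow pools, and the part of depth in this was not tested.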
